A study of Mus musculus with 4 samples.

Results

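Germ cells of the E12.5 testis were compared with germ cells of the E12.5 ovary where both carried the CreERT2 transgene, over 28791 named autosomal genes of 30738 named genes. Each gene was taken at its cluster of highest mean over the 4 arrays of the series, and X-linked, Y-linked and mitochondrial genes were set aside because the sexes differ in them by chromosome. The 4 groups had 1 array each: MC, male germ cells with CreERT2; FC, female germ cells with CreERT2; M, male germ cells without it; and F, female germ cells without it. Every embryo, controls included, was homozygous for a floxed allele of Max (Max fl/fl), was of the strain given as C57/BL6, and came from a mother given tamoxifen at E8.5. MC and FC also carried 1 copy of Oct4dPE-CreERT2, a tamoxifen-inducible recombinase driven by the distal enhancer of Oct4, so that Max can be deleted in the germ line. Gonads were freed of mesonephros and the germ cells were recovered on magnetic beads with an antibody against SSEA-1, a surface carbohydrate of primordial germ cells. How many embryos went into each array is not given in the sources used here. No difference has a replicate check at 1 array per group, so no p-value was computed, and it is the number of arrays that sets how precise a value can be.

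Mouse germ cells reach the gonad as bipotential primordial germ cells and take their sex from the somatic cells around them. In the ovary, retinoic acid and BMP signals bring about expression of Stra8 and Meiosin, whose products together switch on the genes of meiotic prophase. In the testis, retinoic acid is degraded, Nodal and FGF signals act on the germ cells, and these stop dividing without entering meiosis. MAX is the partner of MYC and also of MGA, with which it forms part of PRC1.6, a polycomb complex that holds germline and meiotic genes silent.

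The targeted gene itself had a signal of 10.33 in MC and 10.31 in FC, against 10.64 in M and 10.75 in F. All signals are log2 values, so that a difference of 1 is 2-fold. Max thus differed by 0.02 between MC and FC and by -0.11 between M and F, and which exons its 1 cluster covers was not examined, so these signals say nothing of the deletion. The germ cell markers Dazl, Ddx4, Dppa3 and Pou5f1 (Oct4) were at 15.56, 10.08, 14.36 and 8.74 in MC and at 16.53, 11.08, 14.21 and 9.14 in FC, where the median autosomal gene was at 4.57 in MC and 4.50 in FC. Kit, Nanos3 and Prdm1 were at 10.48, 8.38 and 6.73 in MC and at 10.88, 8.20 and 6.98 in FC. Tfap2c was at 5.07 in MC and 6.21 in FC, and Fut9 was near the median gene, at 4.60 in MC and 4.69 in FC. Xist, expressed from the inactive X, was at 4.60 in MC and 10.81 in FC, against 4.55 in M and 7.80 in F. Uba1y, a Y-linked gene, was at 13.26 in MC and 5.52 in FC, against 12.82 in M and 9.69 in F. Eif2s3y, Kdm5d and Uty had the same order, with F between FC and the male arrays, while Sry did not separate the sexes, at 7.17 in MC and 6.89 in FC, against 6.80 in M and 7.23 in F. The labelled sex thus stood out clearly in MC and FC, whereas the F array held Y-linked signal and less Xist signal than FC. Every value of M minus F below, and every statement that sets MC or FC against F, rests on that array.

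MC minus FC was at least 1, that is 2-fold, in 255 autosomal genes (0.886%) and at most -1 in 348 (1.21%). The differences had a median of 0.02 and a standard deviation of 0.366, and 95% of them lay between -0.78 and 0.69. Without CreERT2, M minus F was at least 1 in 189 genes (0.656%) and at most -1 in 147 (0.511%), with a median of -0.01 and a standard deviation of 0.31. The split of the calls between directions depended on the scaling, since centring each array on its median, which moved the median over genes by -0.11, gave 181 higher and 511 lower genes. Dim genes gave few calls: at a mean signal under 4, 0.0266% of 11276 genes were past 2-fold, against 5.42% of 2694 genes at 8 to 10. At 6 to 8 and at 10 to 12 the shares were 4.57% and 5.28%. Counts on the gene lists below are to be read against these shares, since most lists hold genes brighter than the median one. Protein-coding genes made up 279 of the 348 lower and 145 of the 255 higher genes, against 18419 of all 28791. Many of the other genes higher in MC were genes of small RNAs.

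**Figure D1:**
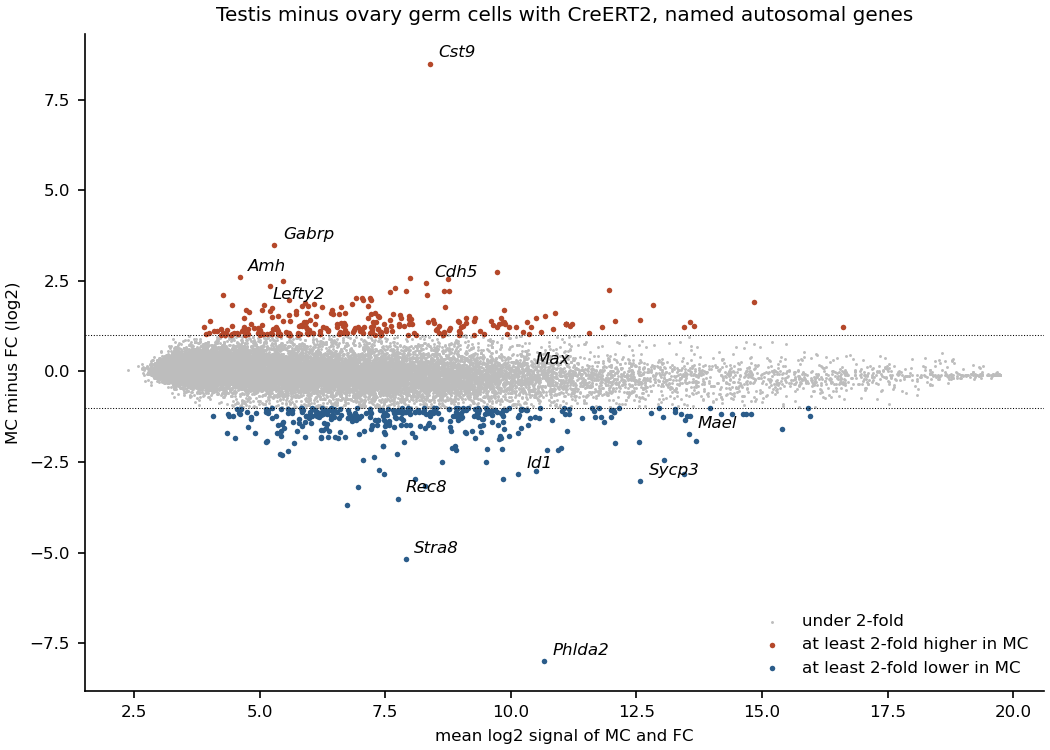
MC minus FC (log2) of each named autosomal gene against its mean log2 signal over MC and FC, with 2-fold marked by dotted lines. Red points are the 255 genes higher in MC by 2-fold or more and blue points the 348 lower ones, with Cst9 at 8.49 and Phlda2 at -7.99 farthest from 0.

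Genes of meiosis were, with 1 exception, lower in MC than in FC. Of 52 autosomal genes on 5 meiosis lists, 27 were at least 2-fold lower in MC, none was 2-fold higher and 51 had a difference below 0, against 1.21% of all autosomal genes at least 2-fold lower. Their median difference was -1.01, against 0.02 over all autosomal genes. M minus F had the same direction with a median of -0.60 and 14 genes at least 2-fold lower.

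Among regulators of meiotic entry, Stra8, the retinoic acid-induced factor that opens the meiotic programme, had 5.31 in MC and 10.50 in FC, against 4.65 in M and 7.28 in F. MC lay 36.5-fold below FC, and both male arrays were below both female arrays. Meiosin, the DNA-binding partner of STRA8 (Bhmg1 in RefSeq), had 6.06 in MC and 8.90 in FC, against 4.80 in M and 5.88 in F. FC was the highest array by far, while the MC signal of this gene was above that of F. Meioc, which with Ythdc2 regulates germ cell RNA on the way into prophase, was at 4.28 in MC and 6.55 in FC, and the RNA-binding gene Rbm46 at 8.71 in MC and 10.18 in FC. Ythdc2 and Dazl, which licenses germ cells for sexual differentiation, were under 2-fold, with differences of -0.84 and -0.97. The list thus held 4 of 6 genes at least 2-fold lower.

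The promoters of 6 of the germline genes described here are shown because the comparison runs on germ cells in which Max could be deleted, and the motifs of MAX and of its PRC1.6 partner E2F6 can be read in them. Each runs from 250 bases before to 50 after the start given by RefSeq (GRCm38.p6), 5′ to 3′ on the strand of the gene. Capitals mark, on either strand, CACGTG (the E-box bound by MAX dimers), TCCCGC (the core of the E2F6 motif) and AGGTCA (the half-site of retinoic acid receptors), and no match overlaps another in these 6.
Stra8 (chr6:34920698-34920997, plus strand): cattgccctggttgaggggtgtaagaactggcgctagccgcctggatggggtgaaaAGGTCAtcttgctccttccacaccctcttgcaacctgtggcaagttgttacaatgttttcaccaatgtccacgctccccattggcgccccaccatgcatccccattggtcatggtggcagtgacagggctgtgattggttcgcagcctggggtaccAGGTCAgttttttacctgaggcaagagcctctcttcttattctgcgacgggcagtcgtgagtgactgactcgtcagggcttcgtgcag
Meiosin (Bhmg1) (chr7:19118295-19118594, minus strand): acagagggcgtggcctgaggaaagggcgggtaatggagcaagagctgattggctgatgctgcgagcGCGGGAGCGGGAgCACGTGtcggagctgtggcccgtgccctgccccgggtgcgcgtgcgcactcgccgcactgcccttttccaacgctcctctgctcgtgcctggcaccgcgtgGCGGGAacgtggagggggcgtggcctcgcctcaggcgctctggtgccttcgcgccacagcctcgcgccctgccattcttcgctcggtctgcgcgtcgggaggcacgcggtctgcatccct
Rec8 (chr14:55617916-55618215, plus strand): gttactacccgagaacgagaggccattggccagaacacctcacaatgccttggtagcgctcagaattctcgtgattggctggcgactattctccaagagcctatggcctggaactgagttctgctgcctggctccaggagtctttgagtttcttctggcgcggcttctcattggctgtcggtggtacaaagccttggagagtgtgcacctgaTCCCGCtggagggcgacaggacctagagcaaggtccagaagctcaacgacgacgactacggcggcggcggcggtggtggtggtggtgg
Sycp3 (chr10:88459337-88459636, plus strand): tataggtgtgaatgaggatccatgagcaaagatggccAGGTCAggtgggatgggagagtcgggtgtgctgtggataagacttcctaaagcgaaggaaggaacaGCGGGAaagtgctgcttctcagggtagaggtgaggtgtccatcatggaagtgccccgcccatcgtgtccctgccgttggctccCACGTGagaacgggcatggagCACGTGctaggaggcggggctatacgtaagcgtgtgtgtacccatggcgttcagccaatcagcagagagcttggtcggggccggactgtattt
Hormad1 (chr3:95559427-95559726, plus strand): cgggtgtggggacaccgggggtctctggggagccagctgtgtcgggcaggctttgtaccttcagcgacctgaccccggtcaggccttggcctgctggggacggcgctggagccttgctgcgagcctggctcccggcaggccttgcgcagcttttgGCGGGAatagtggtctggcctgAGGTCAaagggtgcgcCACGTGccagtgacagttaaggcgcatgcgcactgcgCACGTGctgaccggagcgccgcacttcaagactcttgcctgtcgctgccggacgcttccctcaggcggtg
Mael (chr1:166238695-166238994, minus strand): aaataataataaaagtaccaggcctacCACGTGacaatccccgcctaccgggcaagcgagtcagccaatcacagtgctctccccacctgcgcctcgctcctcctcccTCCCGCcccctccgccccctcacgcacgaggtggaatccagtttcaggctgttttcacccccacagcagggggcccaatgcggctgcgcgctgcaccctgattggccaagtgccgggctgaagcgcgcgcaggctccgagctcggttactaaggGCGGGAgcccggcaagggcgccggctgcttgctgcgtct
Stra8 held AGGTCA at 2 places and neither of the other motifs. Meiosin, Sycp3, Hormad1 and Mael each held both CACGTG and TCCCGC, and Rec8 held TCCCGC alone. Over all 32851 promoters of the table, 7.15% held CACGTG, 20% held TCCCGC, 1.99% held both and 16.3% held AGGTCA. Of the 24 meiosis genes at least 2-fold lower in MC that have a promoter in the table, 10 held CACGTG, 17 held TCCCGC and 9 held both. Of the 20 meiosis genes under 2-fold that have one, the counts were 2, 8 and 1. Over all protein-coding genes at least 2-fold lower in MC, 19.3% of 233 promoters held CACGTG and 10.7% held both, against 9.52% and 2.86% of 105 promoters of genes at least 2-fold higher and 9.23% and 3.24% of all 14892 autosomal protein-coding genes with a promoter here. TCCCGC was in 42.1% of the lower and 22.9% of the higher genes, against 29.7% of those 14892. AGGTCA was in 15.5% of the lower and 21.9% of the higher genes, against 16.4%, and in 4 of the 24 and 3 of the 20 meiosis genes. These shares describe letters in a window, and neither binding nor its part in the differences was measured.

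Meiotic cohesin, the ring that holds sister chromatids together in prophase, was lower in MC in all 4 measured members. Rec8, the meiotic kleisin, had 5.99 in MC and 9.50 in FC, against 5.74 in M and 7.75 in F. Smc1b had 8.25 in MC and 10.75 in FC, with 8.43 in M and 10.21 in F, so that the female arrays were close to each other and far above both male arrays. Rad21l had a signal above 4 in FC alone, at 5.44 against 3.59 in MC, 3.50 in M and 3.54 in F. Stag3, at 11.25 in MC and 12.25 in FC, sat on the threshold.

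Of 11 genes of the synaptonemal complex and chromosome axis, 9 were at least 2-fold lower in MC, with a list median of -1.48. Sycp3, a core component of the axis, had 11.06 in MC and 14.09 in FC, against 9.59 in M and 10.81 in F. MC lay above F for this gene, and FC was 8.17-fold above MC. Tex12, of the central element, had 9.12 in MC and 11.88 in FC, with 9.12 in M and 9.96 in F. Hormad1, which marks unsynapsed axes, had 9.93 in MC and 12.05 in FC, with 8.62 in M and 10.06 in F, and Sycp1, which forms the transverse filaments, had 6.83 in MC and 8.31 in FC, with 5.41 in M and 5.87 in F. Sycp2 (-0.96) and the AAA ATPase gene Trip13 (-0.29) were under 2-fold.

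The other meiosis lists had medians nearer to 0, a contrast that was not tested, and more dim members, with 5 of 16 and 5 of 15 below the median gene in MC against none of the 11 above. Of 16 genes of break formation and strand exchange, 6 were at least 2-fold lower in MC and the median was -0.57. Dmc1, the meiotic recombinase, had 6.09 in MC and 8.46 in FC, against 5.83 in M and 7.80 in F, and Meiob, which binds single-stranded DNA at breaks, had 4.46 in MC and 6.65 in FC, against 4.21 in M and 4.55 in F. Dmc1 was thus high on both female arrays and Meiob on FC alone. Spo11, the enzyme that makes the breaks, stayed near the median gene, at 4.57 in MC and 4.77 in FC. Of 15 genes of crossover formation and telomere attachment, 4 were at least 2-fold lower (Terb2, Hfm1, Ccnb1ip1 and Shoc1, from -1.48 to -1.03), with a median of -0.66. Over all 27 meiosis genes at least 2-fold lower in MC, FC was the highest of the 4 arrays in 26, which compares with 318 of all 348 lower genes.

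**Figure D2:**
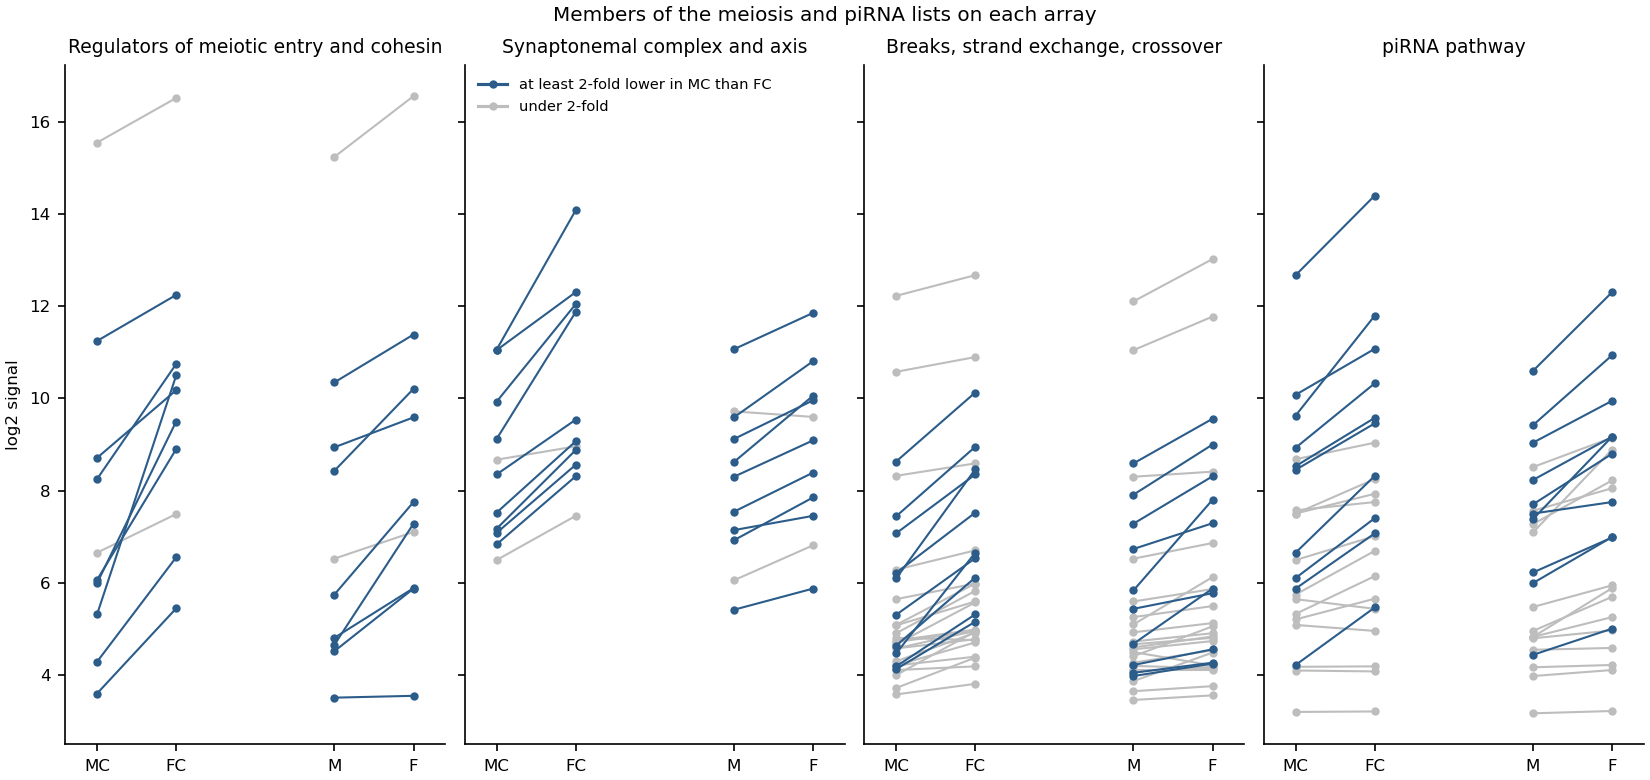
Log2 signal of each member of the meiosis and piRNA lists on MC, FC, M and F, with lines joining the 2 sexes of 1 CreERT2 status. Blue genes were at least 2-fold lower in MC than FC; 27 of the 52 meiosis genes and 10 of the 23 piRNA genes are blue, and nearly every line slopes upward to the ovary array.

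Germline genes beyond meiosis shared this direction. The piRNA pathway, which silences transposons, had 10 of 23 genes at least 2-fold lower in MC, against 1.21% of all autosomal genes, and none higher. Its median was -0.82, close to the -0.74 of M minus F. Gpat2, an acyltransferase gene needed for piRNA production in germline stem cells, had 9.63 in MC and 11.80 in FC, against 9.42 in M and 10.94 in F. Mael, of the nuage, had 12.68 in MC and 14.41 in FC, against 10.60 in M and 12.31 in F, so that MC stood above F. The germline targets of E2F6 and PRC1.6 overlap the meiosis and piRNA lists. Of 21 such targets, 16 were at least 2-fold lower in MC, against 1.21% of all autosomal genes, with a median of -1.28. In M minus F, 13 were at least 2-fold lower, against 0.511% of all, with a median of -1.04. MC was above M in 14 of these 21 genes, against 14470 of all 28791 autosomal genes, and FC above F in 20, against 13485 of all. MC was above F in 10, against 14630 of all. The comparisons with F rest on the array that held Y-linked signal, whose part in them was not tested. Outside the lists, M1ap, needed for male meiosis, had 4.90 in MC and 8.58 in FC, against 5.01 in M and 6.32 in F. H2bc1, the testis histone H2B, had 12.03 in MC and 14.85 in FC, against 10.17 in M and 12.42 in F.

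Genes of male germ cell fate mostly differed by less than 2-fold. Of 14 measured, 2 were at least 2-fold higher in MC, against 0.886% of all autosomal genes, and none lower. The list median was 0.15, against -0.07 in M minus F. Lefty2, a target and inhibitor of Nodal, had 6.01 in MC and 4.18 in FC, against 6.01 in M and 5.53 in F. Tdgf1 (Cripto), the coreceptor of Nodal, had 5.48 in MC and 4.18 in FC, against 5.04 in both M and F. In both genes FC stood below the other 3 arrays, which lay close together. Lefty1 differed by 0.98, at 5.67 in MC and 4.69 in FC. Nanos2, the RNA-binding repressor of meiosis in the testis, was below the median gene on all 4 arrays, at 3.76 in MC and 3.61 in FC, and Dnmt3l was as dim, at 3.30 in MC and 3.14 in FC. In the wider list of Nodal and activin signalling, Inha, the inhibin alpha subunit, was also higher in MC. It had 8.24 in MC and 6.98 in FC, against 7.32 in M and 7.75 in F, so that M minus F had the opposite sign. Foxh1, the DNA-binding partner of Nodal SMADs, was lower in MC at the threshold. FGF, WNT and hedgehog genes gave no 2-fold difference among 15, 17 and 9 members.

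Genes of the response to BMP, a signal of the ovary, had several members past 2-fold with CreERT2 and none without it, a contrast that was not tested. Of 21 genes, 5 were at least 2-fold lower in MC, against 1.21% of all autosomal genes, and none was higher. The list median was -0.16. Id1, a direct target of BMP SMADs, had 8.72 in MC and 11.56 in FC, against 8.68 in M and 9.13 in F. Msx2 had 5.84 in MC and 8.29 in FC, against 6.54 in M and 7.05 in F, and Gata2 had 5.45 in MC and 7.26 in FC, against 5.90 in M and 5.94 in F. FC was the highest array for each of the 5 genes (Id3 and Msx1 were the others, at -1.68 and -1.53), and MC was the lowest array for 4 of them. Over all 348 genes at least 2-fold lower in MC, FC was highest in 318 and MC lowest in 229. That order thus follows largely from how the genes were picked. Bmp2 itself was dim, at 4.04 in MC and 4.63 in FC. The retinoic acid list had 1 of 20 genes past 2-fold, Cdx2 at 5.03 in MC and 6.08 in FC, and its median of 0.04 changed sign under each of 3 other scalings. Cyp26b1, which degrades retinoic acid in the testis, was at 4.67 in MC and 4.54 in FC, and the receptor gene Rarb at 5.59 in MC and 5.35 in FC.

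Of 17 genes of the oocyte programme 4 were at least 2-fold lower in MC, against 1.21% of all autosomal genes. Figla, the oocyte transcription factor, had 4.16 in MC and 6.10 in FC, against 3.96 in M and 4.72 in F, and Sohlh2 had 9.30 in MC and 10.99 in FC, against 9.70 in M and 11.40 in F. Both female arrays were above both male arrays in these genes, with FC the higher of them for Figla and F for Sohlh2, and the remaining ones were Taf4b (-1.43) and Ybx2 (-1.16). Nobox, Lhx8 and the zona pellucida genes were dim on all 4 arrays. Pluripotency genes had 2 of 23 at least 2-fold lower in MC, Dppa2 (-1.39) and Sall4 (-1.05), and 1 higher, L1td1 (1.18). Of all autosomal genes at a mean signal of 6 to 8, 4.57% were past 2-fold either way. Pou5f1, Sox2 and Nanog differed by -0.40, -0.90 and 0.35. Of 17 genes of primordial germ cell identity 5 were at least 2-fold lower, led by the interferon-induced membrane gene Ifitm3 (7.19 in MC and 8.52 in FC) and the alkaline phosphatase Alpl (5.82 in MC and 7.04 in FC).

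Subunits of PRC1.6 and the MYC network gave no 2-fold difference among 22 genes, with a median of -0.21, against -0.03 in M minus F. Mga, the partner of MAX in PRC1.6, had 9.20 in MC and 9.59 in FC, and E2f6 7.17 in MC and 6.75 in FC. None of 27 genes of MYC-regulated growth was past 2-fold, and their median of -0.06 changed sign with the scaling. In the mitotic cycle 1 of 25 genes was past 2-fold, Ccnd2 (cyclin D2), at 12.09 in MC and 11.02 in FC, against 12.19 in M and 11.11 in F. Among cell cycle inhibitors Gadd45b, a stress-response gene, had 8.35 in MC and 11.32 in FC, against 8.36 in M and 9.63 in F, and Cdkn1a (p21) had 11.10 in MC and 12.20 in FC, against 11.14 in M and 11.32 in F. Immediate early genes respond within minutes to growth factors and to stress. Of 15 such genes, 5 were at least 2-fold lower in MC, against 1.21% of all autosomal genes. Their median was -0.83, against -0.24 in M minus F. Klf6 had 9.84 in MC and 12.02 in FC, against 10.09 in M and 10.42 in F, and Fos had 6.34 in MC and 7.63 in FC, against 6.20 in M and 6.31 in F. FC was the highest array in 14 of the 15 genes, against 22.2% of all autosomal genes. Genes of p53 and apoptosis had 1 of 18 past 2-fold, again Cdkn1a, and those of DNA methylation 1 of 13, Tet1, which oxidises methylcytosine, at 9.77 in MC and 8.76 in FC, against 9.69 in M and 9.78 in F. Among all autosomal genes, 4.57% were past 2-fold at a mean signal of 6 to 8. The shares were 5.42% at 8 to 10 and 5.28% at 10 to 12. A count of 1 in lists of 13 to 25 genes is thus not read as a result about them.

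**Figure D3:**
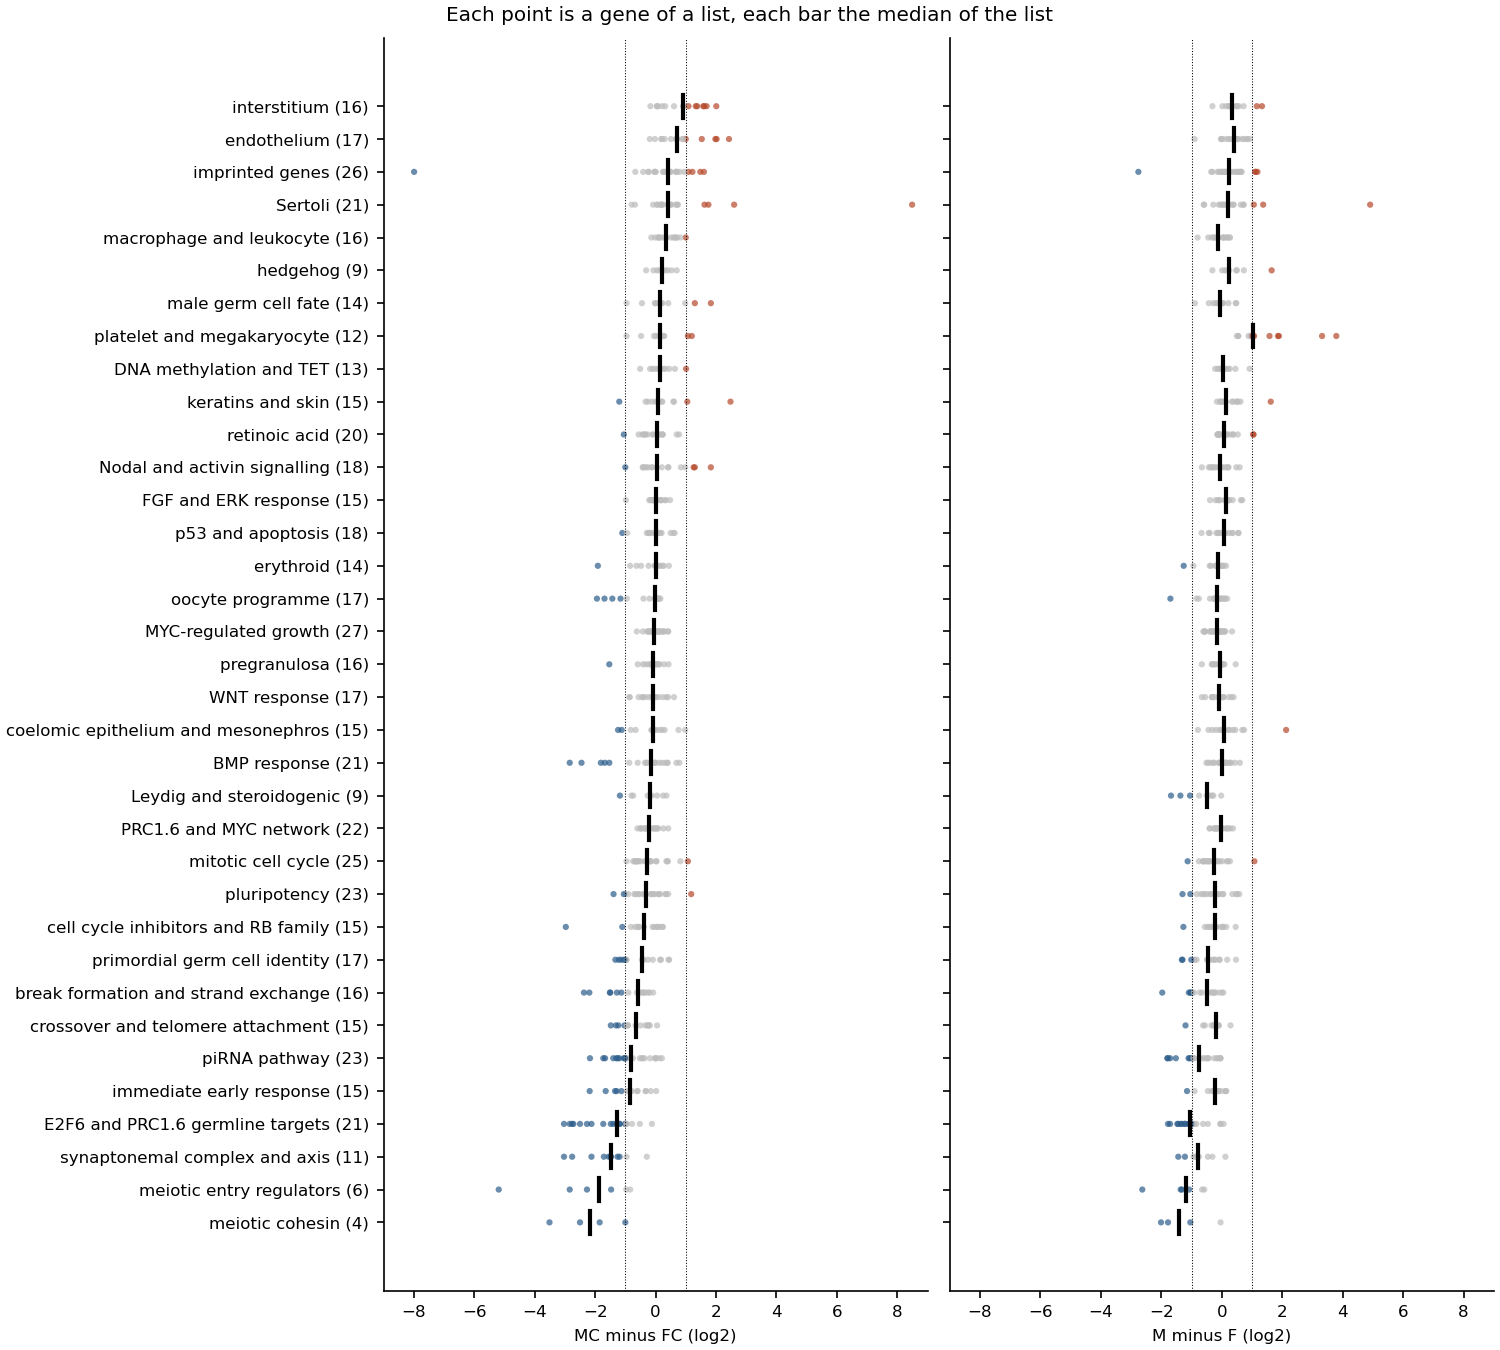
Differences (log2) of each gene of the 35 lists, MC minus FC on the left and M minus F on the right, with the median of each list as a black bar, 2-fold as dotted lines and the number of genes in brackets; some genes are on several lists. Meiotic cohesin, meiotic entry, synaptonemal complex and PRC1.6 target lists have the lowest medians in MC minus FC, and interstitium and endothelium the highest.

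The largest autosomal difference of all was that of Cst9 (testatin), a cystatin-like gene of fetal Sertoli cells, with 12.63 in MC and 4.14 in FC, against 11.12 in M and 6.21 in F. The largest in the other direction was that of Phlda2, an imprinted gene expressed from the maternal allele that restrains placental growth, with 6.66 in MC and 14.65 in FC, against 7.43 in M and 10.19 in F. The differences were 8.49 and -7.99, and the male and female arrays were also apart without CreERT2 in both genes. The FC signal of Cst9 was below the median autosomal gene of that array, so its difference is given as measured and its fold is not. Phlda2 was not typical of its list. Of 26 imprinted genes 4 were at least 2-fold higher in MC, against 0.886% of all autosomal genes. They were Peg10, Grb10, Zim1 and Dcn, by 1.09 or more, and Dcn is also on the interstitium list below. Phlda2 was the 1 gene at least 2-fold lower, and the median was 0.42. Peg10, a paternally expressed retrotransposon-derived gene, had 11.68 in MC and 10.08 in FC, against 11.52 in M and 10.93 in F.

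Among the other genes of largest difference, Calcoco2, an autophagy receptor, had 5.37 in MC and 8.55 in FC, and Phf19, a polycomb-like partner of PRC2, 6.60 in MC and 9.57 in FC. Lrrc34 and Tex101, a surface protein of germ cells, had differences of -3.16 and -2.72. On the higher side, Gabrp, a subunit of the GABA-A receptor, had 7.04 in MC and 3.55 in FC, against 3.96 in M and 3.75 in F, so that MC alone was high. Cbl, a ubiquitin ligase, had 11.08 in MC and 8.35 in FC, against 11.41 in M and 11.83 in F, so that FC alone was low. The other cluster of Cbl differed by 0.43, so its large value rests on the choice of cluster. Tgfb3 had 9.27 in MC and 6.70 in FC, against 8.74 in M and 6.82 in F, and Gstm2, a glutathione transferase, 13.07 in MC and 10.83 in FC, against 11.89 in M and 11.58 in F. Several predicted genes of a multicopy family on chromosome 14 (Gm3685, Gm38418, Gm10406, Gm2237 and Gm3317, named after their values were seen) were higher in MC by 1.38 to 1.81 with FC alone low, but their near-identical copies can share probes and these values are uncertain.

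Markers of other gonadal cells moved with the comparison. In such bulk samples, fewer cells of a type and less RNA per cell cannot be told apart. Of 21 Sertoli markers 4 were at least 2-fold higher in MC, against 0.886% of all autosomal genes, with a median of 0.42. MC was the highest of the 4 arrays in 16 of them, against 8321 of all 28791 autosomal genes. The log2 of their summed signal was 12.87 in MC and 9.94 in FC, against 11.63 in M and 9.91 in F. Cst9 alone made up 84.9% of the sum in MC and 1.8% in FC, against 70.3% in M and 7.7% in F, and without it the sums were close, at 10.13 in MC and 9.91 in FC, against 9.88 in M and 9.79 in F. Amh, the hormone of Sertoli cells, had 5.91 in MC and 3.31 in FC, against 4.89 in M and 3.52 in F, and Hsd17b3 had 6.13 in MC and 4.38 in FC, against 5.61 in M and 4.55 in F. The defining gene Sox9 was at 7.41 in MC and 6.92 in FC, against 7.31 in M and 6.68 in F. Of the list, 3 genes were lower in MC, Dmrt1 (-0.79), Cldn11 (-0.68) and Fgf9 (-0.08). The 4 genes at least 2-fold higher were Cst9, Amh, Hsd17b3 and Ptgds, and the part of residual Sertoli RNA in their differences was not tested.

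Interstitial markers had 7 of 16 genes at least 2-fold higher in MC, against 0.886% of all autosomal genes, and none lower. Their median was 0.92, against 0.33 in M minus F. Their summed signal was 11.77 in MC and 10.82 in FC, against 11.59 in M and 11.15 in F. Acta2, smooth muscle actin, had 8.04 in MC and 6.03 in FC, against 7.86 in M and 6.53 in F, and Nr2f2 had 9.63 in MC and 8.25 in FC, against 9.76 in M and 8.60 in F. Endothelial markers had 5 of 17 genes at least 2-fold higher in MC, against 0.886% of all autosomal genes, and none lower. The endothelial median was 0.71, against 0.42 in M minus F. Cdh5 (VE-cadherin) had 9.52 in MC and 7.09 in FC, against 9.75 in M and 8.82 in F, and Kdr, a receptor of VEGF, had 7.93 in MC and 5.91 in FC, against 7.80 in M and 7.31 in F. FC was the lowest of the 4 arrays in 14 of 17 endothelial and 12 of 16 interstitial genes, against 26.1% of all autosomal genes. Pecam1, which germ cells also express, was level at 9.17 in MC and 9.36 in FC. The part of these cells in the genes higher in MC was not tested.

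The other lists did not all follow the interstitial and endothelial ones. Of 16 pregranulosa genes 1 was past 2-fold, Msx1 (-1.53), and Foxl2, the defining factor, was dim on all 4 arrays, at 3.04 in MC and 2.99 in FC. Of 9 Leydig genes 1 was lower, the steroidogenic enzyme gene Hsd3b6 at 5.41 in MC and 6.59 in FC. Krt8 and Krt18, keratins of simple epithelia on the list of coelomic epithelium and mesonephros, were lower in MC than FC by 1.12 and 1.24. Their M minus F went the other way, at 0.68 and 0.45. On the same list Pax2, Pax8 and Cdh16, genes of the mesonephric tubules, were well above the median gene on every array, from 7.41 to 10.11. Embryonic globin Hbb-y had 12.73 in MC and 14.64 in FC, against 13.95 in M and 15.21 in F, while Klf1, the erythroid factor, was dim. Platelet genes had 2 of 12 at least 2-fold higher in MC, Pf4 and Clec1b, against 0.886% of all autosomal genes. However, all 12 were highest on M, against 6125 of all 28791 autosomal genes. Pf4 was at 10.93 in M, against 7.49 in MC, 6.29 in FC and 7.14 in F. Macrophage markers lay near the median gene, Ptprc (CD45) was dim on all 4 arrays, and Cx3cr1, at 6.27 in MC and 5.27 in FC, was the 1 of 16 at 2-fold. Of these 16 genes 14 had a difference above 0, with a median of 0.345, against -0.115 in M minus F. FC was the lowest array in 9 of the 16, against 26.1% of all autosomal genes. Of 15 keratin and skin genes 2 were at least 2-fold higher in MC and 1 lower, against 0.886% and 1.21% of all autosomal genes. Their median of 0.08 changed sign with the scaling. Krt5, a basal keratin, had 6.71 in MC and 4.23 in FC, against 4.85 in M and 4.36 in F, Krt14 differed by 1.05, and the desmosome gene Dsp had 6.88 in MC and 8.08 in FC, against 7.48 in M and 6.94 in F.

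**Figure D4:**
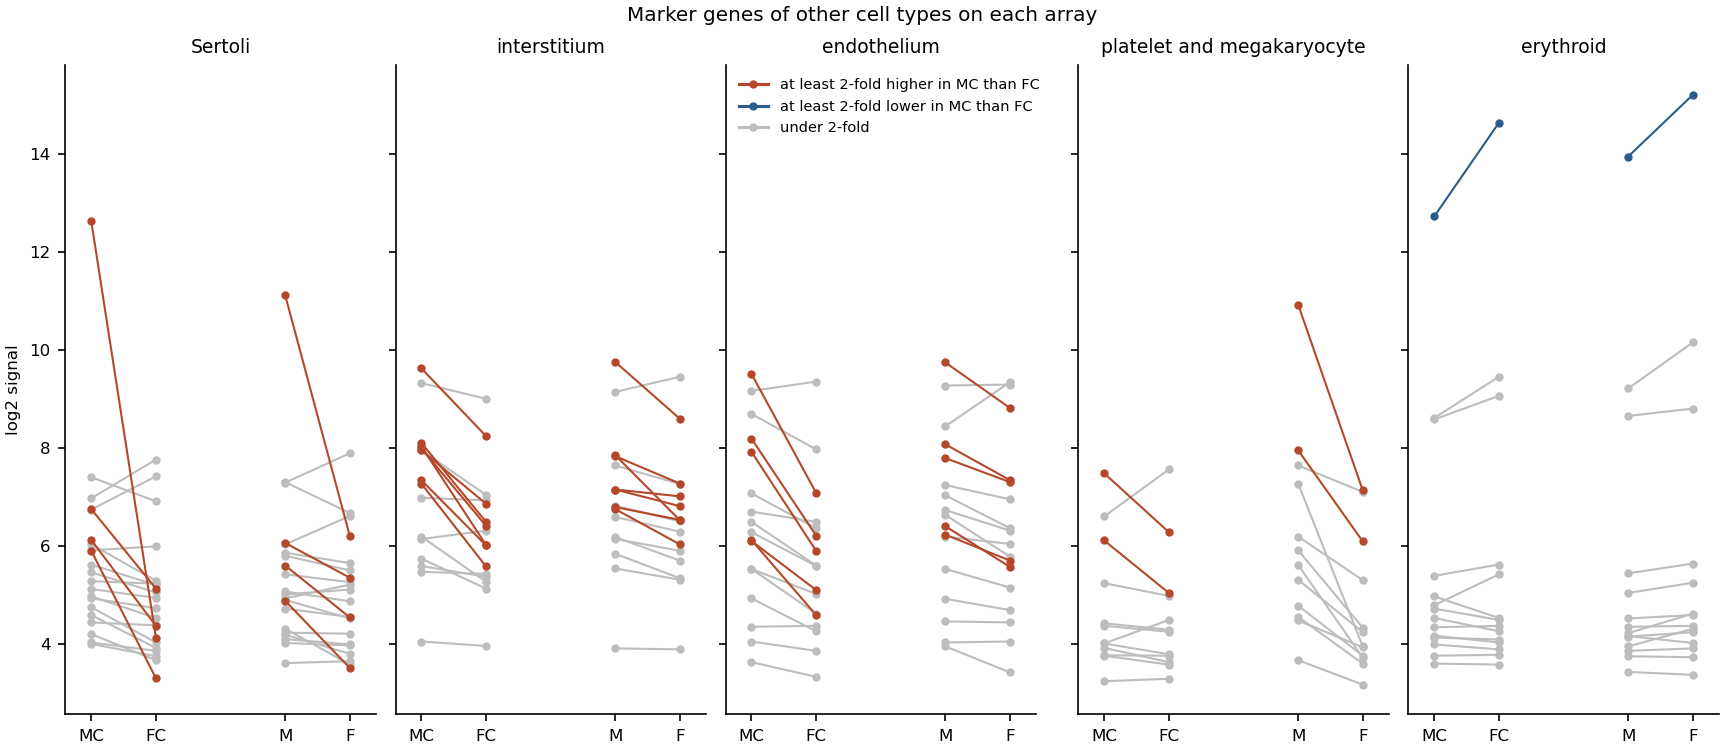
Log2 signal of each marker gene of Sertoli cells, interstitium, endothelium, platelets and erythroid cells on MC, FC, M and F, with lines joining the 2 sexes of 1 CreERT2 status. Red genes were at least 2-fold higher in MC than FC and the blue gene (Hbb-y) at least 2-fold lower; 14 of 17 endothelial genes are lowest on FC and all 12 platelet genes highest on M.

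Small RNA genes made up a large part of the genes higher in MC. Of 843 miRNA genes 36 were at least 2-fold higher (4.27%, against 0.886% of all autosomal genes) and 1 was lower, of 916 snoRNA genes 26 were higher and 5 lower, and of 846 snRNA genes 19 were higher and 1 lower. M minus F had 37 miRNA, 21 snoRNA and 34 snRNA genes at least 2-fold higher. The miR-466, miR-467 and miR-669 genes accounted for 17 of the 36, of 73 measured, and for 12 in M minus F. Of these 17, 11 lie on chromosome 2, where Sfmbt2 hosts a cluster of them in mouse, and Sfmbt2 itself was at 5.60 in MC and 5.94 in FC. How many of the 73 measured genes lie on chromosome 2 was not counted, so the 11 do not show that this cluster stands out. The miRNAs below, with their seeds (bases 2 to 8) in capitals, are members of that family, the miRNA of largest difference and the 1 lower miRNA, from RefSeq (GRCm38.p6).
miR-467f (chr11:69635419-69635439, minus strand): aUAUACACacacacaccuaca
miR-466j (chr10:60960802-60960824, plus strand): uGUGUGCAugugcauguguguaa
miR-466k (chr3:85467396-85467418, plus strand): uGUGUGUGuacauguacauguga
miR-669n (chr3:115979905-115979924, plus strand): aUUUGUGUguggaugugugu
miR-544-5p (chr12:109729335-109729355, plus strand): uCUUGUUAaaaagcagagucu
miR-544-3p (chr12:109729371-109729392, plus strand): aUUCUGCAuuuuuagcaagcuc
let-7f-5p (chr13:48537889-48537910, minus strand): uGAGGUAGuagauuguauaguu
Of the 37 miRNA genes past 2-fold, 22 were matched to 32 mature sequences, all with different seeds. Among them are only 5 of the 17 miR-466, miR-467 and miR-669 genes, so shared seeds within that family were not assessed. Mir467f had 14.25 in MC and 12.90 in FC, against 13.85 in M and 12.93 in F, and Mir466k had 10.30 in MC and 8.91 in FC, against 9.83 in M and 8.65 in F. The other cluster of Mir467f differed by 0.28 in MC minus FC, so that its value rests on the choice of cluster. At the clusters used, the male arrays were high and the female arrays low in both genes, with and without CreERT2. Mir544 on chromosome 12 had 8.84 in MC and 6.54 in FC, against 7.98 in M and 7.32 in F. Mirlet7f-1 had 4.30 in MC and 6.60 in FC, against 4.09 in M and 5.73 in F. Members of the miR-466 family carry alike GU repeats, and a cluster cannot tell a mature miRNA from its precursor or host transcript, so the values of single members are uncertain. Among snRNA genes, 19 higher ones had 15 distinct sets of values, so that some are not separate measurements, and Rnu1a1 (U1) had 11.86 in MC and 10.56 in FC, with M minus F at 0.63. Snord14e had 15.80 in MC and 13.88 in FC, against 15.71 in M and 14.73 in F.

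Most genes past 2-fold with CreERT2 had the same direction without it, at a smaller size. Of the 255 genes at least 2-fold higher in MC, 194 had M minus F above 0 and 50 (19.6%) had it at 2-fold or more, which is 26.5% of the 189 genes of M minus F. Of the 348 lower genes, 329 had M minus F below 0 and 59 (17.0%) were at least 2-fold lower, which is 40.1% of the 147 genes of M minus F. The median over the higher genes was 1.24 in MC minus FC and 0.48 in M minus F, and over the lower genes -1.23 and -0.57, where the choice of genes by MC minus FC favours the larger value in that contrast. Both male arrays lay above both female arrays in 187 of the 255 higher genes and below both in 308 of the 348 lower genes. The order of MC and FC in these genes was fixed by how they were chosen, and this pattern was not counted over all genes. FC stood at least 2-fold below all 3 other arrays in 49 of the higher genes and at least 2-fold above them in 72 of the lower genes, whereas MC stood apart in this way in 19 and 6. M minus F also carries the Y-linked signal of the F array, whose part in the narrower gap was not tested.

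Genes whose difference itself changed most with CreERT2 are given as values, since no test of the change was possible. MC minus FC, less M minus F, was -5.23 for Phlda2, -2.56 for Stra8, -2.39 for Id1 and -2.37 for M1ap, genes whose direction was the same in both. Thbs1, an extracellular matrix glycoprotein gene that platelets also carry, had 6.90 in MC and 8.85 in FC, against 8.97 in M and 7.58 in F, so that its direction was opposite. Tuba4a, a tubulin gene, had 6.59 in MC and 8.88 in FC, against 7.85 in M and 7.28 in F. Mir5123, with the lowest value of all at -5.78, had 7.11 in MC and 7.91 in FC, against 9.38 in M and 4.40 in F. In the other direction MC minus FC exceeded M minus F by 3.58 for Cst9, 3.28 for Gabrp, 3.15 for Cbl, 2.25 for the defensin gene Defb19 and 2.12 for the chemokine gene Cxcl13.

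**Figure D5:**
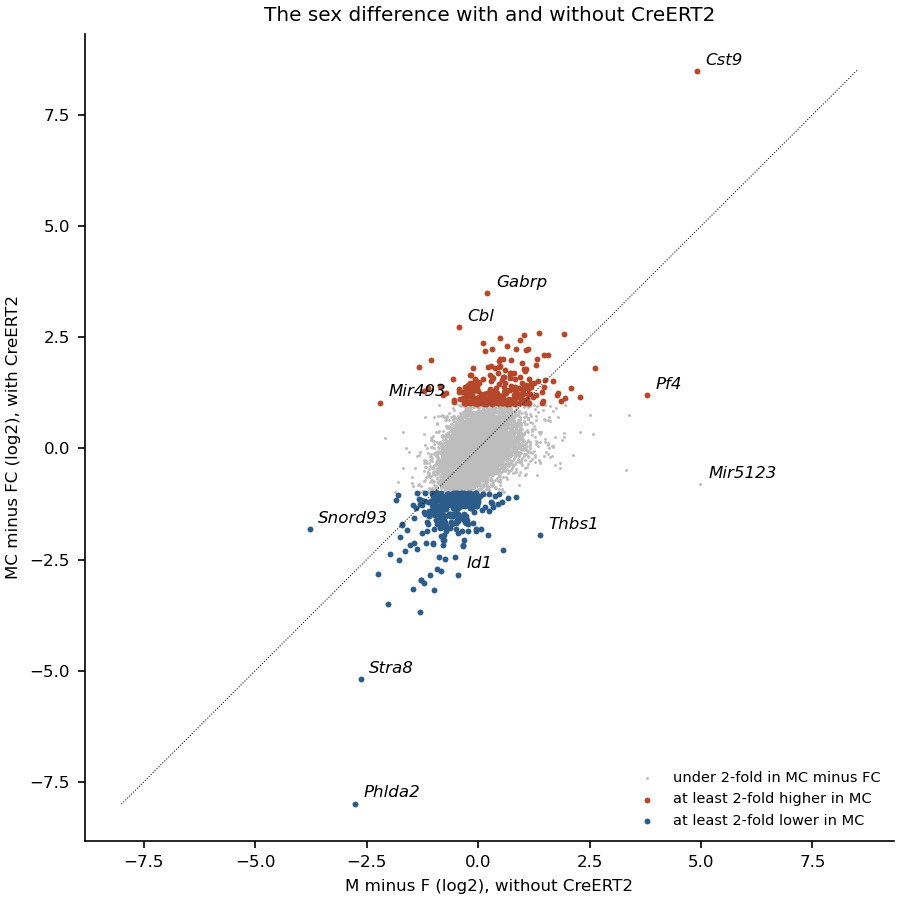
MC minus FC (log2, vertical) against M minus F (log2, horizontal) for each named autosomal gene, with equal differences along the dotted line. Red and blue genes were at least 2-fold higher or lower in MC; most lie in the quadrants where both differences have 1 sign, on the side of the line where MC minus FC is the larger, Mir493 and Thbs1 lie in opposite quadrants, and Mir5123 and Pf4 differ more in M minus F.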

How the data were processed

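RNA of sorted germ cells was hybridized to 4 arrays, 1 per group. The deposited table holds, for each of 65956 transcript clusters, a log2 value per array (2.29 to 19.85). According to the Methods the authors subtracted background and applied robust multiarray analysis (R). Transcriptome Analysis Console is the software in the sample notes, and which of them made the values is unsettled. So is the array type, which the Methods and the cluster identifiers give differently. The values were used as they stand, and every column was mapped to a sample.

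Clusters were named from the platform annotation, with symbols updated to RefSeq (GRCm38.p6), which changed 330. Of the clusters, 30636 had 1 symbol, 654 had several symbols of 1 gene, 1522 had several genes and were unnamed, and 33142 were not in the annotation. Beyond the 28791 autosomal genes, 1866 were on X, 72 on Y and 6 were mitochondrial. Of the 407 autosomal genes with several clusters, 19 were past 2-fold, and their brightest other cluster had the same sign in 19 and was past 2-fold in 4.

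Differences are MC minus FC and M minus F. With 1 array per group a gene was counted at a log2 difference of 1 or more, with no test. The 35 gene lists and the compared groups were chosen with earlier results of these data known. Genes named are Max, the defining genes of each list, up to 8 members per list past 2-fold, the 15 largest differences each way and the 10 largest changes of the difference each way among genes of at least median signal (4.53), and sex-linked checks. Further list members and small RNAs were named as examples after their values were seen. Quantile normalization, median centring, cyclic loess, a filter at median signal, other treatments of clusters, and 1.5-fold and 3-fold thresholds were planned as alternatives. Counting was tested on simulated data. Python 3.11.15 with numpy 2.4.6, pandas 2.3.3 and matplotlib 3.10.9, and R with limma, were used.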

Additional observations from a re-analysis of the deposited data

Results flagged for a closer look

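Of all autosomal genes, 6 were past 2-fold in opposite directions with and without CreERT2, a difference between the groups that was not tested. Thbs1 had MC minus FC of -1.95 and M minus F of 1.39. Mir1931 had 1.98 and -1.06, Mir493 had 1.03 and -2.20, Snord73a had 1.84 and -1.33, Gm12238 had 1.36 and -1.12, and Gm26265 had 1.29 and -1.22. All but Thbs1 are genes of small RNAs.

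Outside the autosomal measurement, Y-linked genes had signal on the F array above that on FC. The excess of F over FC was 4.17 for Uba1y, 1.82 for Eif2s3y and 1.46 for Zfy1, and Xist was at 7.80 in F and 10.81 in FC.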

How the results depend on the processing

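No paired analysis was possible because each group has 1 array and the labels carry no replicate numbers, and for the same reason no array could be left out. The counts of 255 higher and 348 lower genes became 1080 and 1425 at 1.5-fold and 49 and 79 at 3-fold. Protein-coding genes alone, chosen after seeing the data, gave 145 higher and 279 lower. The 3 scalings, the filter and the treatments of clusters gave 181 to 266 higher and 308 to 511 lower genes, with median centring at 181 and 511, so that the share of higher genes among the calls was 26.2% in place of 42.3%. It kept all 348 lower genes, while quantile normalization kept 324 and cyclic loess 288. Of 122 named genes past 2-fold, 114 stayed so after quantile normalization, 115 after median centring and 112 after cyclic loess, and none changed sign. Those under 2-fold in at least 1 of these scalings were Ddx4, Stag3, Rnf17, Foxh1, Sall4, Tex19.1, Cdkn1a, Tet1, Ccnd2, Dcn, Tek, Cx3cr1, Clec1b and Krt14. Averaging the clusters of a gene took Pld6 under 2-fold. Choosing clusters on MC and FC alone, also added after seeing the data, took Cbl under 2-fold. The medians of 6 lists, all near 0, changed sign after quantile normalization (Nodal and activin, retinoic acid, FGF, MYC-regulated growth, p53, keratins). The largest move of a list median was 0.13 under the 3 scalings and 0.27 with the mean of a gene's clusters, where cell cycle inhibitors had -0.11 in place of -0.38. Among genes with a mean signal under 4, 3 of 11276 were past 2-fold, so that differences of dim genes are hardly visible on these arrays.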
